A study of Caenorhabditis elegans with 4 samples.

Results

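The fatty acid and lipid metabolism genes of the nematode Caenorhabditis elegans were examined in adult males on 4 DNA microarrays of 2 colours. Members were the genes whose symbol in the platform's probe annotation belonged to the fat, elo, acs, acdh, lbp, far, lipl, dhs, acox, cpt or ech classes, or was pod-2, fasn-1, sbp-1, let-767 or daf-22. This choice used names only and gave 116 genes on 120 probes, out of 19513 features in all. Of these, 114 had a log2 ratio on at least 3 arrays and were tested. The other members were acs-18, with values of 2.92 and 3.58 on preparations 1 and 2, and dhs-3, with 1 value of 1.38 on preparation 2. No member was found for let-767, which shared its probe with rpn-13, or for dhs-5, which shared its probe with daz-1. These probes are not counted here. The desaturase genes fat-1 and fat-6 were not analysed here.

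Each array held RNA, called mRNA in the source names and total RNA in the molecule field, of him-5 adult males in channel 2, from preparations numbered 1 to 4, beside wild-type RNA as the reference in channel 1, which the labels call mixed and, on 1 array, mixed stage. Loss of him-5 causes errors of X-chromosome segregation, and hermaphrodites with such a mutation have many sons. The labels give no age beyond adult, no allele of him-5, no growth conditions and no dye, and do not say whether the preparations were separate cultures, so that p-values measure only the spread between the preparations, which may be technical. Values are log2 ratios of males over reference. The table does not state that direction, which is likely from the wording of the title and descriptions and from the male RNA being channel 2. Sex, stage and the him-5 mutation differ together between males and reference and cannot be told apart.

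Fatty acids are built from acetyl groups by acetyl-CoA carboxylase and fatty acid synthase, and are then lengthened by elongases and given double bonds by desaturases. C. elegans makes its own polyunsaturated fatty acids in this way. To be used, a fatty acid is coupled to coenzyme A by an acyl-CoA synthetase, and it is broken down by rounds of beta-oxidation in mitochondria or peroxisomes. The peroxisomal route also shortens the side chains of ascarosides, the pheromones of the worm. Binding proteins carry fatty acids within cells and between tissues, and lysosomal lipases release them from stored or internalised lipid. The intestine and the hypodermis are the main sites of fat metabolism, and the hermaphrodite intestine also supplies lipid to the oocytes in yolk.

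The arrays carried signals of male tissue. The targeted gene him-5 had log2 ratios of -2.13, -1.61, -2.26 and -3.11 on preparations 1 to 4, and where its probe lies relative to the mutation is not known here. Sperm markers were higher in males for 24 of 25 genes (array medians 4.07 to 4.99), and male neuron markers for 6 of 8 with 1 lower (1.32 to 2.54). Oocyte and hermaphrodite markers were lower for 12 of 15 genes with 1, vit-6, higher (array medians -1.93 to -1.06), whose call was lost without preparation 3 and under both centrings described below (adjusted p up to 0.24), and embryo markers were lower for 5 of 8 with none higher at an unadjusted p under 0.05 either (-0.90 to -0.60). Intestinal markers were higher for 5 of 12 genes and lower for 1 (0.08 to 0.76), while hypodermal markers were lower for 5 of 11 and higher for 1 (-1.02 to 0.30). The part of these tissues in the ratios of lipid genes was not tested. In RNA of whole worms, fewer cells of a type and less RNA per cell cannot be told apart.

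Lipid genes differed between males and reference in both directions, and did so within most families. By limma, with a Benjamini-Hochberg adjusted p under 0.05 over 19214 features (called here), 31 of the 114 tested members were higher in males and 28 lower. That is 27.2% higher and 24.6% lower, beside 22.1% and 23.6% of all features. At least 2-fold, 20 of the 114 tested members were called higher and 17 lower, beside 13.2% and 12.1% of all features. The median log2 ratio was 0.02 for the members and 0.05 for all features, and the median absolute log2 ratio was 0.73 for the members and 0.55 for all features. Relatives could differ widely: the acyl-CoA synthetase gene acs-6 was 7.77-fold higher in males, while another synthetase gene, acs-2, was 8.09-fold lower.

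How many members counted as higher depended on the zero point of the arrays. When the median of the ribosomal protein genes was set to 0 on each array (the ribosomal centring), the median of all features shifted by -0.40. Of the 114 tested members, 13 were then called higher and 29 lower, beside 8.45% and 23.6% of all features. When chemoreceptor genes served instead (the chemoreceptor centring), the shift was -0.34. The counts were then 17 and 30, beside 10.5% and 29.8% of all features. Of the 31 higher calls in the values as deposited, 13 were kept under both centrings and with each preparation left out in turn, and of the 28 lower calls, 21 were. Both centrings lowered the ratios on every array, so ratios below 0 moved further from it. Keeping a lower call under them therefore says little: 0 of the 28 lower calls were lost to a centring, against 18 of the 31 higher calls. Without preparation 3 the counts were 20 higher and 21 lower, beside 14.4% and 15.3% of all features. Calls named below that did not hold are given with their values at the end of each paragraph.

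**Figure D1:**
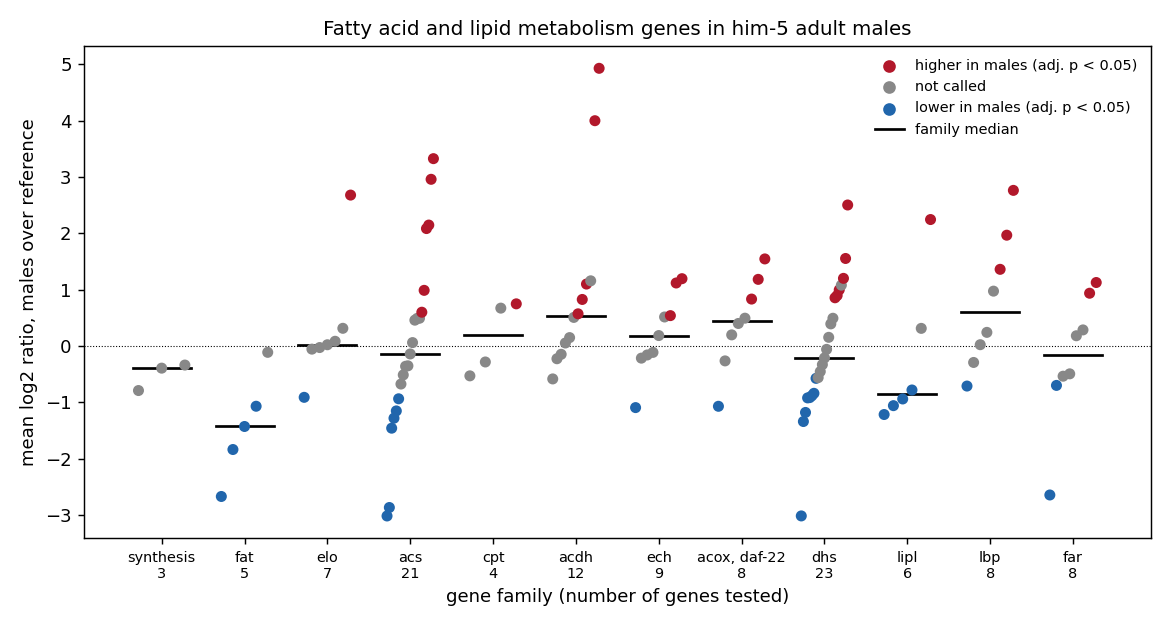
Mean log2 ratio, males over reference (y axis), of each of the 114 tested lipid genes, grouped by family on the x axis with the number tested. Each point is a gene and the bar is the family median; the fat family has no point above 0 and 4 of 5 genes called lower, while the acs and dhs families spread widely on both sides.

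The enzymes that start fatty acid synthesis showed no called difference, and their 4 preparations disagreed. On preparations 1 to 4, pod-2, which encodes acetyl-CoA carboxylase, stood at -0.33, -1.72, -0.34 and 1.04. The fatty acid synthase gene fasn-1 stood at -0.84, -2.34, -0.27 and 0.29. The sterol regulatory element binding protein gene sbp-1, a transcription factor that drives lipid synthesis genes, stood at -0.59, -0.97, -0.33 and 0.33. All 3 genes were lowest on preparation 2 and highest, above 0, on preparation 4. By limma none of the 3 was called, nor had any an unadjusted p under 0.05. Without preparation 4, fasn-1 was called lower at -1.15 (adjusted p = 0.0479), as it was with the earlier or later pair of title dates as a covariate (adjusted p = 0.0457).

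Desaturase genes were lower in males. Of 5 measured fat genes, 4 were called lower and none higher, beside 23.6% and 22.1% of all features. None had an unadjusted p under 0.05 in the higher direction (limma). The family median was -1.43, and all 4 array medians were below 0 (-1.95 to -0.79). The largest difference was in fat-3, the delta-6 desaturase that acts on linoleic and alpha-linolenic acid, with log2 ratios of -1.02, -3.02, -3.44 and -3.20 on preparations 1 to 4. Preparation 1 thus lay nearer 0 than the other 3, and all were below it. The mean was -2.67 ± 1.12 (SD, n = 4, limma adjusted p = 0.00153), or 6.36-fold lower.

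Of the other desaturases towards polyunsaturated fatty acids, fat-2 and fat-4 were lower too. The delta-12 desaturase gene fat-2, whose enzyme turns oleic into linoleic acid, stood at -0.89, -2.38, -1.79 and -2.29, with a mean of -1.84 ± 0.68 (SD, n = 4, limma adjusted p = 0.00156). The delta-5 desaturase gene fat-4, which acts after fat-3, stood at -0.54, -1.95, -1.54 and -1.69, with a mean of -1.43 ± 0.61 (SD, n = 4, limma adjusted p = 0.00348). Again preparation 1 was nearest to 0 for both genes. Of the delta-9 desaturases, which make monounsaturated fatty acids, fat-7 lay between -1.40 and -0.79 on the 4 arrays, a mean of -1.07 ± 0.25 (SD, n = 4, limma adjusted p = 0.00262). In contrast, fat-5, which prefers palmitic acid, stood at 0.71, -0.62, -0.20 and -0.34 and was not called (adjusted p = 0.717). The 4 calls of fat-2, fat-3, fat-4 and fat-7 were kept without each preparation in turn. They were also kept under both centrings, which moved these ratios further from 0.

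Elongase genes did not share this shift. Of 7 measured elo genes, 1 was called higher and 1 lower (14.3% each, beside 22.1% and 23.6% of all features), and the family median was 0.02. The elongase of polyunsaturated fatty acids that works between fat-3 and fat-4, elo-1, stood at 0.45, 0.82, -0.37 and 0.36 and was not called (adjusted p = 0.274). For elo-2, which lengthens palmitic acid, the values were -0.21, 0.24, -0.51 and 0.25. The genes of branched-chain fatty acid synthesis, elo-5 and elo-6, had means of 0.08 ± 0.79 and -0.03 ± 0.29 (SD, n = 4), and elo-3 a mean of 0.02 ± 0.63 (SD, n = 4). None of these 5 was called, and each had arrays on both sides of 0.

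By contrast, elo-7 was among the lipid genes with the largest positive ratios. It stood at 3.34, 2.14, 2.64 and 2.60 on preparations 1 to 4, a mean of 2.68 ± 0.50 (SD, n = 4, limma adjusted p = 0.000146), or 6.40-fold higher. The gene elo-4 stood at -0.11, -1.25, -0.62 and -1.67, with a mean of -0.91 ± 0.69 (SD, n = 4, limma adjusted p = 0.0283). Its call was lost without preparation 2 (-0.80, adjusted p = 0.0972), preparation 3 (-1.01, adjusted p = 0.0572) or preparation 4 (-0.66, adjusted p = 0.0839).

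**Figure D2:**
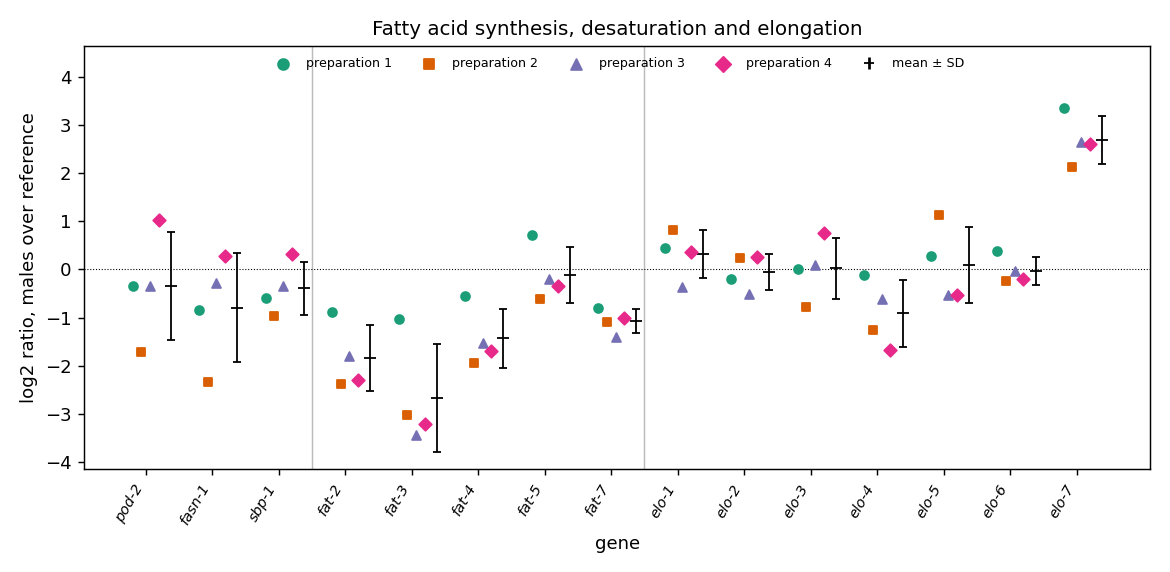
Log2 ratio, males over reference (y axis), of the synthesis, desaturase and elongase genes (x axis, groups divided by vertical lines) on preparations 1 to 4, with the mean ± SD beside them. All arrays of fat-2, fat-3, fat-4 and fat-7 lie below 0, those of elo-7 lie between 2.14 and 3.34, and pod-2, fasn-1 and sbp-1 are lowest on preparation 2.

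Acyl-CoA synthetase genes included members much higher and members much lower in males. Of 21 tested acs genes, 6 were called higher and 6 lower (28.6% each, beside 22.1% and 23.6% of all features) and 9 neither, with a family median of -0.14 and a median absolute log2 ratio of 0.94. The highest was acs-10 at 3.90, 2.20, 3.75 and 3.45 on preparations 1 to 4, a mean of 3.32 ± 0.77 (SD, n = 4, limma adjusted p = 0.000182). Next was acs-6 at 3.75, 2.03, 2.70 and 3.34, a mean of 2.96 ± 0.75 (SD, n = 4, limma adjusted p = 0.00027), or 7.77-fold higher. Both were lowest on preparation 2 and more than 2 above 0 on every array. The genes acs-15 and acs-23 followed with means of 2.15 ± 0.58 and 2.08 ± 0.49 (SD, n = 4) and arrays from 1.44 to 2.79 and from 1.60 to 2.60. The member without a test, acs-18, stood at 2.92 on preparation 1 and at 3.58 on preparation 2, where it lay above these 4 genes.

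At the other end, acs-2, whose enzyme activates fatty acids for mitochondrial beta-oxidation and which is induced by fasting, stood at -2.49, -4.64, -2.23 and -2.70. Its mean was -3.02 ± 1.10 (SD, n = 4, limma adjusted p = 0.00087), or 8.09-fold lower, and preparation 2 lay below the other 3. The gene acs-11 stood at -2.22, -3.66, -3.01 and -2.56, a mean of -2.87 ± 0.62 (SD, n = 4, limma adjusted p = 0.000183). Smaller reductions were called for acs-19, a relative of acetyl-CoA synthetases, at -1.46 ± 0.12, and for acs-17 at -1.28 ± 0.67 (SD, n = 4). The remaining lower calls were acs-12 at -1.15 and acs-21 at -0.94. No lower call of this family was lost without a preparation. None was lost under either centring, which moved these ratios further from 0.

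Several synthetases with known roles were not called. These were acs-1, which activates branched-chain fatty acids, at 0.49, acs-4 at -0.36, and the fatty acid transport protein homologues acs-20 and acs-22, which are needed for the cuticle barrier, at -0.67 and -0.35. Without preparation 4, acs-20 was called lower at -0.98 (adjusted p = 0.0144). The 2 weakest higher calls, acs-5 at 0.99 and acs-14 at 0.60, did not hold. Each was lost without preparation 1, 3 or 4 (adjusted p up to 0.0744 for acs-5 and 0.0895 for acs-14) and under both centrings (up to 0.308 and 0.646).

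**Figure D3:**
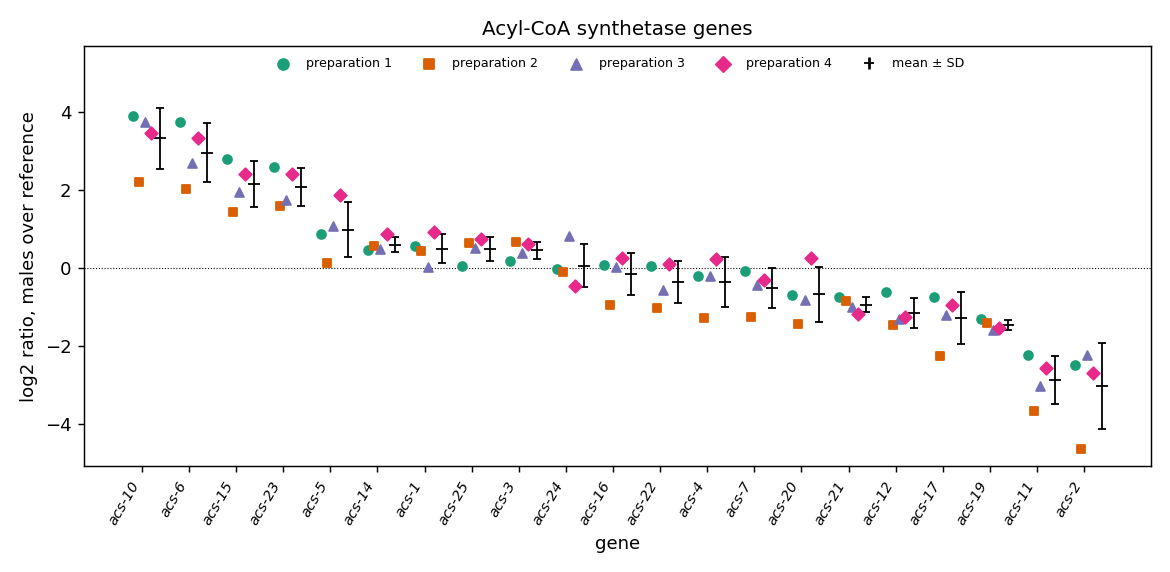
Log2 ratio, males over reference (y axis), of the 21 tested acyl-CoA synthetase genes (x axis, ordered by mean) on preparations 1 to 4, with the mean ± SD beside them. The 4 genes acs-10, acs-6, acs-15 and acs-23 lie above 1.4 on every array, and acs-11 and acs-2 lie below -2.2 on every array.

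The cpt genes encode carnitine palmitoyltransferases, which act where fatty acids enter mitochondria. Of 4 measured, 1 was called higher and none lower, beside 22.1% and 23.6% of all features. At an unadjusted p under 0.05, 2 were higher and 1 lower (limma). The called gene cpt-4 stood at 0.38, 0.64, 0.63 and 1.35, a mean of 0.75 ± 0.42 (SD, n = 4, limma adjusted p = 0.0216). The call did not hold without preparation 3 (0.79, adjusted p = 0.0697), without preparation 4 (0.55, adjusted p = 0.0661) or under both centrings (adjusted p = 0.436 and 0.219). The means of cpt-5, cpt-6 and cpt-2 were 0.67, -0.28 and -0.53, each with arrays on both sides of 0. Without preparation 2 cpt-5 was called higher (1.00, adjusted p = 0.00841), and without preparation 4 cpt-2 was called lower (-0.72, adjusted p = 0.0401).

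Acyl-CoA dehydrogenases, the enzymes of the first oxidation step, held the largest positive ratios of all members. Of 12 acdh genes, 5 were called higher (41.7%, beside 22.1% of all features) and none lower (beside 23.6%). At an unadjusted p under 0.05, 6 were higher and none lower (limma), and the family median was 0.54. For acdh-8, a relative of medium-chain acyl-CoA dehydrogenases, the values were 4.46, 3.32, 3.94 and 4.27 on preparations 1 to 4. The mean was 4.00 ± 0.50 (SD, n = 4, limma adjusted p = 3.59e-05), and all arrays lay more than 3 above 0. The gene acdh-5 had values on 3 arrays only, 6.09 on preparation 1, 2.19 on preparation 2 and 6.50 on preparation 3. Its mean was 4.93 ± 2.38 (SD, n = 3, limma adjusted p = 0.00355), and without preparation 2 it was 6.29.

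The other dehydrogenases differed less. The gene acdh-4 stood at 1.10 ± 0.44 (SD, n = 4, limma adjusted p = 0.00507), and its call was lost under both centrings (adjusted p = 0.172 and 0.0815). The calls of acdh-9 at 0.83 and acdh-2 at 0.57 were lost without preparation 1, 3 or 4 (adjusted p up to 0.0869 and 0.153) and under both centrings (up to 0.437 and 0.709). The gene acdh-1, which acts in an alternative route of propionate breakdown and responds to vitamin B12 in the diet, varied widely between preparations. Its log2 ratios were -1.04, 0.56, 1.74 and 3.36, and it was not called (1.16 ± 1.86, SD, n = 4, limma adjusted p = 0.156). It was called higher without preparation 1 (1.89, adjusted p = 0.0241), with the pair of title dates as a covariate (adjusted p = 0.0254) and when arrays were weighted (0.0229).

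Enoyl-CoA hydratases, which act after the dehydrogenases, gave 3 higher calls and 1 lower among 9 ech genes, with a median of 0.19. That is 33.3% and 11.1%, beside 22.1% and 23.6% of all features. The trifunctional protein subunit gene ech-1.1 stood at 1.04, 0.90, 0.81 and 2.03, a mean of 1.19 ± 0.56 (SD, n = 4, limma adjusted p = 0.00603). Its relative ech-1.2 stood at 0.24, -1.14, 0.01 and 0.44 and was not called. The mitochondrial hydratase gene ech-6 had a mean of 1.12 ± 0.56, and ech-3 was lower at -1.09 ± 0.48 (SD, n = 4, limma adjusted p = 0.0061). The call of ech-1.1 was lost under both centrings (adjusted p = 0.11 and 0.0552) and that of ech-6 under the ribosomal centring (0.72, adjusted p = 0.104). The call of ech-4 at 0.54 was lost without preparation 1, 3 or 4 (adjusted p up to 0.167), under both centrings (up to 0.79), with each array centred on its median (0.0567), and with the earlier or later pair of title dates as a covariate (0.0595).

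Of the peroxisomal acox genes and daf-22, the gene of the last enzyme of the cycle differed most in the values as deposited. The thiolase gene daf-22, which ascaroside synthesis requires, stood at 1.91, 0.89, 1.51 and 1.87 on preparations 1 to 4. Its mean was 1.54 ± 0.47 (SD, n = 4, limma adjusted p = 0.00132), or 2.92-fold higher, and all arrays were above 0. Under the ribosomal and chemoreceptor centrings daf-22 stood at 1.14 and 1.20 (limma adjusted p = 0.0445 and 0.0217). The oxidase gene acox-1.6 then differed more, at -1.47 and -1.41. The dehydrogenase gene dhs-28, which acts in the step before daf-22 and is named here for that place in the pathway, stood at 1.03, -0.13, 0.84 and 1.69. Its call (0.86 ± 0.75, SD, n = 4, limma adjusted p = 0.0427) was lost without preparation 1, 3 or 4 (adjusted p up to 0.129) and under both centrings (up to 0.448). The hydratase gene maoc-1 of the same pathway, which is no member by name, was not called at 0.22.

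Acyl-CoA oxidases open the peroxisomal cycle, and their genes acox-1.1 to acox-1.4 lie side by side in the gene order of assembly WBcel235. These 4 had 2 probes each, and all 8 probes were highest on preparation 4, where 29.1% of all features were highest. There acox-1.2 stood at 2.89, against 0.60, 0.62 and 0.61 on preparations 1 to 3. Likewise acox-1.4 stood at 0.25, 0.72, 0.50 and 1.86, acox-1.3 at -0.06, 0.49, 0.11 and 1.44, and acox-1.1 at 0.11, -0.06, 0.35 and 1.19. Preparation 4 thus lay above the other 3 for each, as it did for dhs-2 and acdh-1. The median of the 11 hypodermal markers was also highest there, at 0.30 against -1.02 to -0.82 on the others. So were those of the intestinal markers (0.76 against 0.08 to 0.52) and male neuron markers (2.54 against 1.32 to 1.56). Those of the sperm, oocyte and hermaphrodite, and embryo markers were not. All genes of the hypodermal list but nhr-25 and nhr-23 were highest on preparation 4, by margins that differed. The cuticle collagen gene bli-1 stood there at 4.65 against -0.04 to 1.16, and col-12 at 2.95 against 1.26 to 2.93. The gene nhr-25 stood at -1.38 against -1.39 to -1.19. The part of these tissues in the acox values was not tested. Probe sequences were not used here, so a probe may read more than 1 of these relatives.

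Of the 7 acox genes, 2 were called higher and 1 lower, beside 22.1% and 23.6% of all features. The higher calls, acox-1.2 at 1.18 ± 1.14 and acox-1.4 at 0.83 ± 0.71 (SD, n = 4, limma adjusted p = 0.0427 and 0.0417), did not hold. For acox-1.2 the mean was 0.61 without preparation 4, and the call was lost without preparation 1, 2 or 3 (adjusted p up to 0.0755). For acox-1.4 it was lost without preparation 2, 3 or 4 (up to 0.1), and for both genes under both centrings (up to 0.22 and 0.38) and with scale normalization (0.052 and 0.051). The lower gene acox-1.6 stood at -1.01, -1.42, -1.43 and -0.42, a mean of -1.07 ± 0.48 (SD, n = 4, limma adjusted p = 0.00664). The genes acox-1.5 and acox-3 were not called at 0.20 and -0.26.

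**Figure D4:**
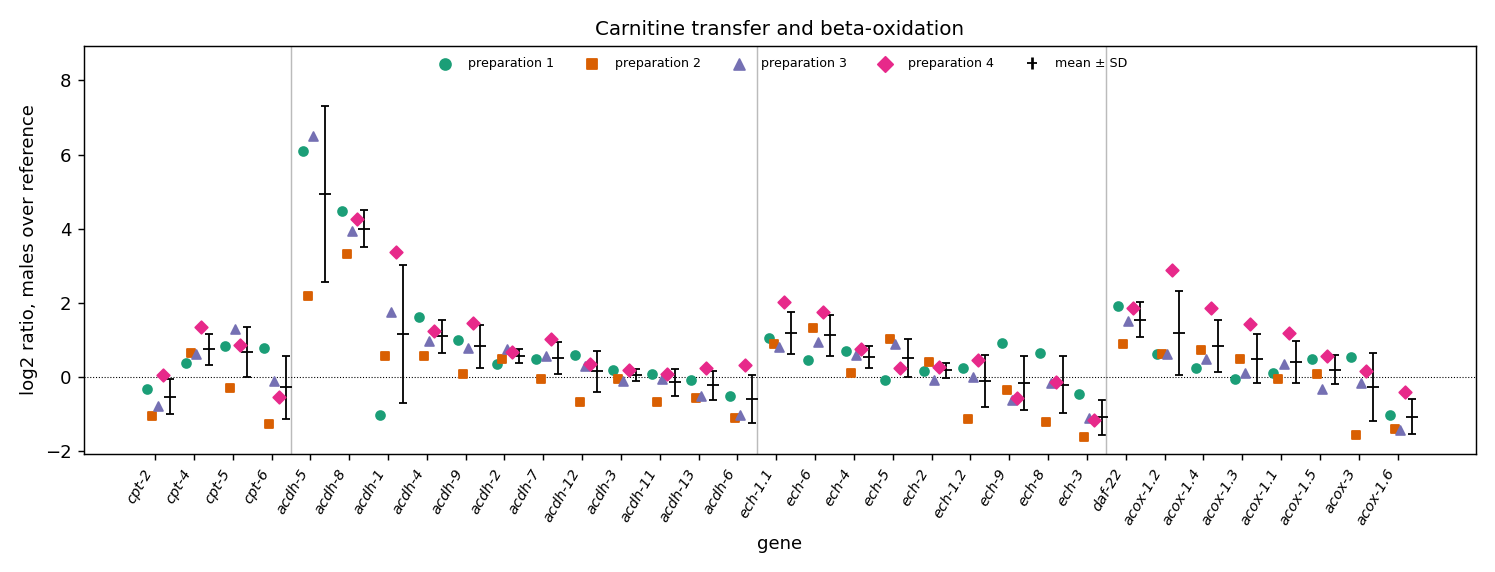
Log2 ratio, males over reference (y axis), of the cpt, acdh, ech, and acox and daf-22 genes (x axis, groups divided by vertical lines) on preparations 1 to 4, with the mean ± SD beside them. The genes acdh-5 and acdh-8 stand highest, acdh-1 spans -1.04 to 3.36, and acox-1.2 lies at 2.89 on preparation 4 against 0.60 to 0.62 on the others.

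The dhs class names short-chain dehydrogenases, a large enzyme group of which only some act on fatty acids. Of 23 tested dhs genes, 6 were called higher and 8 lower (26.1% and 34.8%, beside 22.1% and 23.6% of all features), with a median of -0.21. The highest was dhs-7 at 2.88, 2.07, 2.68 and 2.38, a mean of 2.50 ± 0.35 (SD, n = 4, limma adjusted p = 0.000111), or 5.66-fold higher. The next were dhs-23 at 1.55, dhs-8 at 1.20 and dhs-25 at 1.00. The lowest was dhs-26 at -2.88, -2.36, -3.20 and -3.63, a mean of -3.02 ± 0.53 (SD, n = 4, limma adjusted p = 0.000109), or 8.08-fold lower. It was followed by dhs-1 at -1.34 and dhs-31 at -1.18, and by dhs-16, whose enzyme acts in the synthesis of the steroid hormone dafachronic acid, at -0.92 ± 0.28 (SD, n = 4, limma adjusted p = 0.0056).

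On every array dhs-7 lay more than 2 above 0 and dhs-26 more than 2 below it. The calls of dhs-23, dhs-8 and dhs-25 were lost under the ribosomal centring (adjusted p = 0.0527, 0.0753 and 0.173), and that of dhs-25 also under the chemoreceptor centring (0.0615). The uncalled gene dhs-2 stood at 0.51, -0.50, 0.48 and 3.83, high on preparation 4 alone.

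Most lysosomal lipase genes were called lower in males, but the calls of lipl-2 and lipl-4 did not hold. Of 6 measured lipl genes, 4 were called lower and 1 higher, with a median of -0.86. That is 66.7% and 16.7%, beside 23.6% and 22.1% of all features. The higher one, lipl-5, stood at 3.02, 2.04, 1.78 and 2.13 on preparations 1 to 4, a mean of 2.24 ± 0.54 (SD, n = 4, limma adjusted p = 0.000367), or 4.74-fold higher. In contrast, lipl-7 stood at -0.48, -1.59, -1.29 and -1.51, a mean of -1.22 ± 0.51 (SD, n = 4, limma adjusted p = 0.00444). The lipase gene lipl-4, whose raised expression extends lifespan, stood at -0.83, -0.46, -0.88 and -0.96, a mean of -0.78 ± 0.22 (SD, n = 4, limma adjusted p = 0.00907). The other lower calls were lipl-2 at -1.06 and lipl-1 at -0.94, and lipl-3 was not called at 0.31. Without preparation 3 the call of lipl-4 was lost (-0.75, adjusted p = 0.0583), and that of lipl-2 was lost without preparation 2, 3 or 4 (adjusted p up to 0.0799).

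Among the lbp genes, which encode fatty acid binding proteins, 3 of 8 were called higher and 1 lower, with a median of 0.61. That is 37.5% and 12.5%, beside 22.1% and 23.6% of all features. The gene lbp-7 stood at 2.86, 3.04, 2.42 and 2.72 on preparations 1 to 4, a mean of 2.76 ± 0.26 (SD, n = 4, limma adjusted p = 5.54e-05), or 6.78-fold higher. For lbp-6 the values were 2.11, 2.78, 1.41 and 1.56, a mean of 1.97 ± 0.62 (SD, n = 4, limma adjusted p = 0.000904). The gene lbp-5, whose protein brings fatty acids to the nucleus, stood at 1.55, 1.96, 0.94 and 0.99, a mean of 1.36 ± 0.49 (SD, n = 4, limma adjusted p = 0.00246). These 3 calls were kept without each preparation in turn and under both centrings.

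The gene lbp-8, whose protein carries a lipid signal from lysosomes to the nucleus, stood at 1.06, 2.39, 0.30 and 0.15 and was not called (adjusted p = 0.0611). It was called higher without preparation 4 (1.25, adjusted p = 0.0359) and with the pair of title dates as a covariate (adjusted p = 0.015). The genes lbp-4, lbp-2 and lbp-1 had means of 0.24, 0.02 and -0.29, none called, and lbp-3 was lower at -0.71 ± 0.32 (SD, n = 4, limma adjusted p = 0.0181). Its call was lost without preparation 3 (-0.71, adjusted p = 0.0792). Of the 8 genes, 7 were highest on preparation 2, where 30.7% of all features were highest. On that preparation the median of the ribosomal protein genes was 1.10, against 0.04 to 0.33 on the others, and the part of that offset in the lbp values was not tested.

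The far genes encode secreted fatty acid and retinol binding proteins of nematodes. Of 8, 2 were called higher and 2 lower, with a median of -0.16. That is 25% each, beside 22.1% and 23.6% of all features. The gene far-2 stood at 1.03, 1.75, 0.66 and 1.06, a mean of 1.13 ± 0.45 (SD, n = 4, limma adjusted p = 0.00481), while its neighbour far-1 stood at -0.10, 0.51, -0.07 and 0.39 and was not called. The lowest was far-7, measured on 3 arrays at -2.37, -2.50 and -3.06, a mean of -2.64 ± 0.37 (SD, n = 3, limma adjusted p = 0.000324), or 6.25-fold lower. On preparation 4 far-3 stood at -2.15, against -0.17 to 0.18 on the others. The call of far-2 was lost under the ribosomal centring (0.73, adjusted p = 0.0619). Those of far-8 at 0.94 and far-4 at -0.70 were lost without preparation 1 or 3 (adjusted p up to 0.0664 and 0.0889), that of far-4 also without preparation 4, and that of far-8 under both centrings (up to 0.33).

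**Figure D5:**
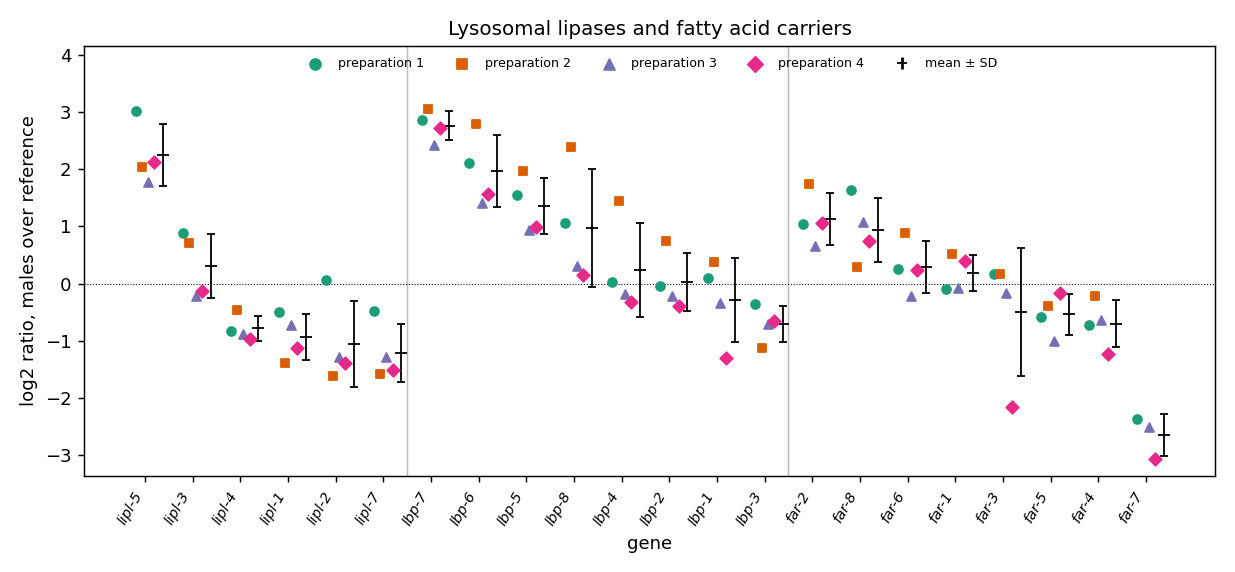
Log2 ratio, males over reference (y axis), of the lipl, lbp and far genes (x axis, groups divided by vertical lines) on preparations 1 to 4, with the mean ± SD beside them. The gene lipl-5 stands above the other lipl genes and lbp-7 and lbp-6 above the other lbp genes, and far-7 lies between -3.06 and -2.37.

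Some neighbouring genes were alike and others were not. In the gene order of assembly WBcel235, elo-1 and elo-7 lie side by side, and elo-7 was 6.40-fold higher while elo-1 was not called at 0.31. Likewise fat-2 lies beside far-6, which was not called at 0.29, and ech-8 beside lipl-7, at -0.22 and -1.22. On the other hand fat-3 and fat-4 lie side by side and were both lower, and lbp-5 and lbp-6, with 1 coding gene between them, were both higher. The neighbours ech-8 and ech-9 were not called at -0.22 and -0.16, and far-3, far-4 and far-5 had means of -0.49, -0.70 and -0.54. Of these, far-5 was below 0 on every array and not called (limma adjusted p = 0.0554). It was called lower without preparation 4 (-0.66, adjusted p = 0.049) and with each array centred on its median (-0.56, adjusted p = 0.043). The 3 neighbours lbp-1, lbp-2 and lbp-3 had means of -0.29, 0.02 and -0.71.

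The preparations also differed from one another over the lipid genes. Of the 114 tested members, 56 (49.1%) were lowest on preparation 2, against 39.4% of all features, and 49 (43.0%) were highest on preparation 1, against 25.3%. The array medians of the members were 0.17, -0.11, -0.15 and 0.23 on preparations 1 to 4. The median SD over arrays was 0.53 for the members and 0.40 for all features, on the log2 scale. Correlations over 18642 features, which are no independent replicates, lay between 0.71 and 0.91 for pairs of arrays, and the lowest was that of preparations 2 and 4.

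Beyond the named classes, 129 other lipid genes were listed from their known functions, of which 119 were tested. Of these, 23 were called higher and 39 lower, beside 22.1% and 23.6% of all features, with a median of -0.20. The calls of each list below stand beside the same shares. Without preparation 3, 13 of the other lipid genes were called higher and 23 lower, beside 14.4% and 15.3% of all features. Under the ribosomal and chemoreceptor centrings 5 and 6 were called higher, beside 8.45% and 10.5% of all features. Regulators of lipid metabolism gave 9 lower calls and none higher among 17 genes, none higher at an unadjusted p under 0.05 either (limma). The largest were the transcription factor genes hlh-11 at -1.48 ± 0.60, nhr-25 at -1.32 ± 0.09 and nhr-66 at -1.12 ± 0.39 (SD, n = 4). Without preparation 3, the lower calls of mdt-15, aak-2, daf-12 and daf-16 were lost (adjusted p = 0.0594, 0.084, 0.0583 and 0.0531). Those of mdt-15 and aak-2 were also lost without preparation 1 (0.0609 and 0.0715) or 2 (0.0572 and 0.0569), and that of daf-12 without preparation 1 (0.064). The nuclear receptor gene nhr-49, a regulator of fat-7 and acs-2, was not called at 0.19 ± 0.37, and neither was its partner nhr-80 at -0.16 ± 0.71 (SD, n = 4). Fat storage and lipolysis genes gave 11 lower and 6 higher calls among 22. Here the acyltransferase gene acl-13 stood at 2.18 ± 0.51, mboa-2, a relative of triglyceride and sterol acyltransferases, at -1.58 ± 0.24, and the lipase cofactor gene lid-1 at -1.53 ± 0.33 (SD, n = 4). The higher calls of dgat-2, acl-1, acbp-3 and acbp-5 were lost under both centrings (adjusted p up to 0.505). Without preparation 3 the lower calls of lpin-1, plin-1, hosl-1, acl-5 and acl-6 were lost (up to 0.126).

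Partners of beta-oxidation and peroxisome genes gave 4 higher and 4 lower calls among 24. The 4 higher ones, kat-1, acaa-2, prx-11 and pmp-1, were all lost under both centrings and without preparation 3. The hydroxyacyl-CoA dehydrogenase gene hacd-1 stood at -2.73 ± 0.66, the peroxin gene prx-10 at -1.35 ± 0.34 and the glyoxylate cycle gene icl-1 at -1.10 ± 0.93 (SD, n = 4), and the call of icl-1 was lost without preparation 1 (-1.15, adjusted p = 0.067). Propionate breakdown genes gave 2 higher and 2 lower calls among 8. They were led by mmaa-1, which serves the vitamin B12-dependent step, at -1.54 ± 0.64 and by hphd-1, which acts after acdh-1 and ech-6 in the alternative route, at 1.29 ± 0.54 (SD, n = 4). The epimerase gene mce-1 stood at -0.69, whose call was lost without preparation 3 or 4 (adjusted p = 0.0779 and 0.0544), and that of hphd-1 was lost under the ribosomal centring (0.89, adjusted p = 0.0519). The other higher call, mmcm-1, was lost under both centrings (adjusted p = 0.549 and 0.254) and without preparation 2 or 3 (0.0515 and 0.138).

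Phospholipid synthesis genes gave 5 higher and 3 lower calls among 16. The methyltransferases that act in turn towards phosphocholine differed in sign, with pmt-1 at -1.38 ± 0.27 and pmt-2 at 1.35 ± 0.33 (SD, n = 4). The choline kinase gene ckb-2 stood at 1.35 and lost its call under both centrings (adjusted p = 0.0857 and 0.0522). The higher calls of sams-1, cept-1 and pssy-1 were lost there too (up to 0.545). Without preparation 3 the lower call of cka-1 was lost (adjusted p = 0.0884). That of psd-1 was lost whichever preparation was left out (adjusted p up to 0.155) and under the ribosomal centring (0.0655). It was also lost with the pair of title dates as a covariate (0.0696) and with features on at least 2 arrays (0.051). Sphingolipid genes gave 1 higher and 4 lower calls among 17. The glucosyltransferase gene cgt-1 stood at -1.10 ± 0.32 and sptl-2, a subunit of the first enzyme of the pathway, at 0.91 ± 0.37 (SD, n = 4). The call of sptl-2 was lost under both centrings (adjusted p = 0.202 and 0.0666), and that of asm-3 at -0.85 without preparation 2 or 4 (0.0839 and 0.0781). The lower calls of sptl-1 and sms-1 were lost without preparation 2 or 3 (up to 0.15 and 0.134).

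Sterol and isoprenoid genes gave 3 calls in each direction among 9. The sterol transport gene ncr-2 stood at 1.80 ± 0.86, daf-36, the first enzyme towards dafachronic acid, at 1.56 ± 0.48, and hmgr-1, which encodes HMG-CoA reductase, at -1.05 ± 0.60 (SD, n = 4). The higher call of fdps-1 was lost under both centrings (adjusted p = 0.198 and 0.0744). The lower calls of hmgs-1 and ncr-1 were lost without preparation 1, 2 or 3 (up to 0.136 and 0.0912). Lipoprotein genes gave 2 higher and 3 lower calls among 6. The lipid transfer gene dsc-4, which loads lipoproteins, stood at 1.44 ± 0.84, the receptor gene lrp-1 at -1.41 ± 0.74 and the yolk protein gene vit-2 at -1.33 ± 0.87 (SD, n = 4). The call of dsc-4 was lost under both centrings (adjusted p = 0.0899 and 0.0615).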

How the data were processed

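Log2 ratios of 4 arrays were used as the authors deposited them. The authors' image analysis, background correction, spot filters and scaling are not given in the sources used here. Spot intensities were not used here, so faint spots could not be filtered. Base 2 was taken from the values: as powers of 2, 100% of ratios below 3 fell on steps of 0.001 (within 0.02 of a step). Of 20000 probes, 19424 to 19761 had a value on an array, and 15655 had 1 gene symbol, 198 several and 4147 none. Symbols were looked up by gene identifier in the RefSeq table of assembly WBcel235, which also gave gene order. No genome build is named in the files, so no coordinates are given.

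Probes of a gene were averaged per array. An intercept was fitted with limma 3.58.1 in R 4.3.3 (lmFit, eBayes, two-sided) for 19214 features with values on at least 3 arrays. P-values were adjusted by Benjamini-Hochberg over all of them. The test of a mean ratio against 0 leaves out the spread of the reference, and no dye swap is recorded, so dye bias of single genes remains. An exact sign-flip test of 4 arrays cannot go below 0.125. The steps were tested on simulated data. The members and lists were chosen with earlier results of these data known. Named were all fat, elo, cpt, lbp and acox genes, pod-2, fasn-1, sbp-1 and daf-22, up to 4 called genes in each direction from the other families, and up to 3 from each list of other lipid genes. Genes outside this rule were named after their values were seen. Alternatives were other centrings and normalizations between arrays, robust eBayes, single probes, array weights, other minimum numbers of arrays, a stricter adjusted p of 0.01, current symbols, each preparation left out, and the period given by the dates in the sample titles (preparations 1 and 2 against 3 and 4). Each period holds arrays of the only group.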

Additional observations from a re-analysis of the deposited data

Results flagged for a closer look

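Among 125 values of members and family medians with 4 arrays, 7 had 1 preparation far from the other 3 by Dixon's test, where chance flags about 1 in 20. On preparation 4, acox-1.2 stood at 2.89 against 0.60 to 0.62 on the others, far-3 at -2.15 against -0.17 to 0.18, and the median of the acox and daf-22 genes at 1.31 against 0.23 to 0.36. On preparation 3, dhs-20 stood at -1.81 against -0.26 to 0.05, and the elo median at -0.37 against 0.24 to 0.27. On preparation 2, acdh-11 stood at -0.69 against -0.05 to 0.07. On preparation 1, dhs-22 stood at -0.33 against -1.13 to -1.08.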

How the results depend on the processing

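No paired analysis was possible because the arrays form 1 group. The count of 28 lower members stayed within 1.5 times under all alternatives, and no called member changed sign. The 31 higher members became 13 with arrays centred on ribosomal protein genes, 17 with arrays centred on chemoreceptor genes and 20 at an adjusted p under 0.01, and 20 to 31 without each preparation in turn. Called higher among the other lipid genes were 5, 6 and 13 under the same 3 settings and 13 to 22 without each preparation. Called lower among them were 18 at the stricter p and 23 to 39 without each preparation. Of all features, 8.45% and 10.5% were called higher under the 2 centrings, and 14.4% to 19.7% without each preparation in turn. Without each preparation, 15.3% to 21.9% of all features were called lower. The share of all features at the stricter p is not given here, so the counts at that p show nothing particular to lipid genes. The 2 centrings gave medians of -0.38 and -0.32 for the members, -0.38 and -0.32 for elo, 0.14 and 0.20 for acdh, -0.22 and -0.16 for ech and -0.56 and -0.50 for far, and the ribosomal one gave -1.26 for lipl. The far median was 0.18 over genes with values on 4 arrays and -0.26 to 0.086 without each preparation. The sign of the medians of all members and of acs, cpt, ech, elo and far depends on the setting, for cpt under both centrings and for acs with array weights or without preparation 2. With array weights, which favoured preparation 3, 17 further members were called, and 31.6% of all features were called higher and 32.0% lower. The number of arrays limits what small ratios can show.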
